A study of Mus musculus with 4 samples.

Results

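mmu-miR-155-5p and mmu-miR-155-3p are the guide and passenger arms cut from 1 hairpin, and they are described here in activated mouse CD4+ T cells. They were chosen by name, as 2 of the 1073 mature miRNAs in the deposited table. Small RNA was sequenced from naive CD4+ T cells of the spleen. The cells were wild type, were transfected with ASO or with its control CRO, and were activated through CD3 and CD28 for 48 h. There were 2 samples per group. The labels expand neither name and give no strain, age or pooling of mice. Every sample was activated, so the induction of miR-155 itself cannot be measured here. Nothing in the labels says whether the samples are from different mice or different cultures. A p-value here rests on spread between these samples, taken in part or in full from other miRNAs, and this spread may be technical.

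miR-155 is processed from a non-coding transcript, Bic or Mir155hg, whose transcription is switched on by antigen receptor signals through AP-1 and NF-kB. Dicer releases a duplex of both arms. The 5p arm is mostly kept by Argonaute and represses mRNAs that pair with its seed, while the 3p arm is mostly degraded. In CD4+ T cells miR-155 is known for supporting proliferation, effector cytokines and regulatory T cell fitness, in part by repressing Socs1, an inhibitor of cytokine receptor signalling.

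The sequences of both arms are shown because the arms were compared throughout. The seed, bases 2 to 8, is in capitals (RefSeq, GRCm38.p6, plus strand, 5′ to 3′).
miR-155-5p: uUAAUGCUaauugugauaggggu
miR-155-3p: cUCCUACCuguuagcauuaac
In the hairpin they share, the bases of the arms are in capitals and all other bases in lower case.
Mir155 hairpin: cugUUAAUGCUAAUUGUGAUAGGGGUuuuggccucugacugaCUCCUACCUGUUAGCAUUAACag
The 65-base hairpin lies at chr16:84714140-84714204 of GRCm38.p6. GENCODE M21, also on GRCm38, places it in exon 2 of 2 of both annotated Mir155hg transcripts, a long non-coding RNA, so it is exonic. The submitters' processing notes name mm9, so these coordinates are those of the reference and not of the files.

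The 5p arm is 23 bases long and spans hairpin positions 4 to 26. The 3p arm is 21 bases long and spans positions 43 to 63, and 16 bases lie between the arms. In the minimum free energy fold (ViennaRNA 2.7.2, -27.2 kcal/mol) 19 base pairs joined the arms, and 7 of the 7 seed bases of miR-155-5p were paired. Argonaute tends to keep the strand whose 5′ end is held less tightly in the duplex. The first 4 bases of miR-155-5p were all A or U (4 of 4), whereas miR-155-3p had 1 A or U and 3 G or C among its first 4. Whether this sets the balance of the arms was not tested. Among 1679 mature miRNA names of the RefSeq table, 0 others shared the seed of either arm, so each arm was its own seed family there.

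The seed of miR-155-5p pairs with AGCATTA, and with AGCATTAA where an A faces its first base. Both motifs, which overlap, were searched on the transcribed strand of 8 genes known as miR-155 targets. The longest annotated 3′ UTR of each gene was used (GENCODE M21). 6 of the 8 held the longer motif: Socs1, Inpp5d, Bach1, Jarid2, Cebpb and Spi1. This share is no test of enrichment, because the genes were picked as known targets. Over 20979 genes, not matched for UTR length, 2.99% held it. The shorter motif occurred in 8.27% of genes, and neither was found in Peli1 or Maf. The match in 4 of these genes is shown in capitals, after the 16 bases before it, to let a reader line it up with the seed.
Socs1: gctgccgctgtgccgcAGCATTAA
Inpp5d: tgagatgtttttaaaaAGCATTAA
Bach1: tctctatgaacagtttAGCATTAA
Jarid2: gaactgattttgttttAGCATTAA
Inpp5d encodes the SHIP-1 phosphatase, Bach1 a transcriptional repressor and Jarid2 a Polycomb cofactor. The mRNAs of these genes were not measured, and a match is a description of the sequence only. The motif that pairs with the 3p seed, GGTAGGA, occurred in 6.87% of genes.

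The deposited table holds group means, and the whole-number counts of each library were recovered from them as set out in the processing section. The recovered libraries held 10192717 and 10483405 counts in ASO, and 5617699 and 3300457 in CRO. They have no known replicate number, and the letters a and b only name them. For miR-155-5p in ASO, rounding allowed several splits and the one that returns the authors' p was taken. Levels are normalized counts, that is, counts divided by the size factor of the library. Because a mature miRNA is read whole, no correction for length was made. Whether the library preparation captured different sequences equally well was not tested. Ratios and ranks between different miRNAs, the arms included, are therefore those of reads and may differ from those of molecules.

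miR-155-5p was the most abundant of the 1073 miRNAs by mean normalized count over all libraries. Its normalized count was 937056 in ASO a, 1092052 in ASO b, 854191 in CRO a and 876434 in CRO b. Both ASO libraries lay above both CRO libraries, and the gap between the nearest pair was 6.92%. The group means were 1014554 ± 109599 (SD, n = 2) in ASO and 865313 ± 15728 (SD, n = 2) in CRO. This is a log2 ratio of 0.23 for ASO over CRO, and the authors' deposited table gave it a DESeq p of 0.50 and an adjusted p of 1, so it did not pass.

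As a share of all counts in its library, miR-155-5p made up 14.95% in ASO a, 14.81% in ASO b, 11.89% in CRO a and 14.78% in CRO b. On this scale CRO b sat beside the ASO libraries and CRO a alone was low. miR-155-5p ranked 1 in every library except CRO a, where it ranked 2 behind miR-21a-5p. Its counts there were 667895, close to the 665899 of miR-16-5p. Elsewhere the level of miR-16-5p, which slows the cell cycle, was exceeded by up to 1.26-fold.

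The share of miR-155-5p in the summed group means was 14.9% (ASO) and 13.2% (CRO). The next by level was miR-16-5p, with 11.9% and 12.1%. It was followed by miR-21a-5p with 11.1% and 11.2%, by miR-142a-3p, a miRNA of all blood cells, with 9.26% and 7.54%, and by let-7f-5p with 5.24% and 5.68%. The order of the top 3 was not the same in every library. The counts of miR-155-5p were 0.862 of those of miR-21a-5p in CRO a and 1.86 times them in CRO b.

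**Figure D1:**
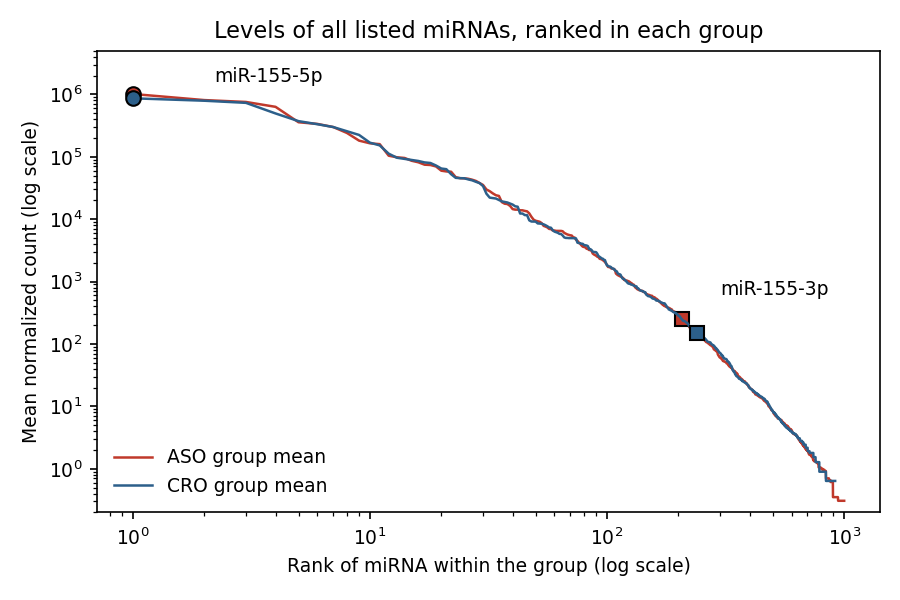
Mean normalized count (y axis, log scale) of every miRNA listed above 0 in a group against its rank there (x axis, log scale), with 1 line per group, circles for miR-155-5p and squares for miR-155-3p. miR-155-5p heads both curves, while miR-155-3p sits at rank 208 (ASO) and rank 239 (CRO).

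The passenger arm, miR-155-3p, was present at a far lower level. It was read 459 times in ASO a, 325 times in ASO b, 112 times in CRO a and 90 times in CRO b. The normalized counts were 282.2 (95% exact Poisson interval 257.0 to 309.3) and 228.6 (204.4 to 254.8) in ASO. They were 143.2 (117.9 to 172.4) and 161.7 (130.0 to 198.7) in CRO. These intervals cover counting error only, since no molecular identifiers are named for these reads. Both ASO libraries lay above both CRO libraries, by 41.4% for the nearest pair, and no ASO interval reached a CRO one. By level the arm ranked 200 in ASO a, 212 in ASO b, 241 in CRO a and 240 in CRO b.

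The group means of miR-155-3p were 255.4 ± 37.9 (SD, n = 2) in ASO and 152.5 ± 13.0 (SD, n = 2) in CRO, a log2 ratio of 0.74 or 1.68-fold. In the authors' deposited table it had a DESeq p of 0.054 and an adjusted p of 1. That p was the 31st smallest of 1073. A log2 ratio at least this high was found for 5.39% of the 482 miRNAs whose base mean, the authors' average of the libraries, was at least 10, and one at least as high as that of miR-155-5p for 32.0% of them.

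**Figure D2:**
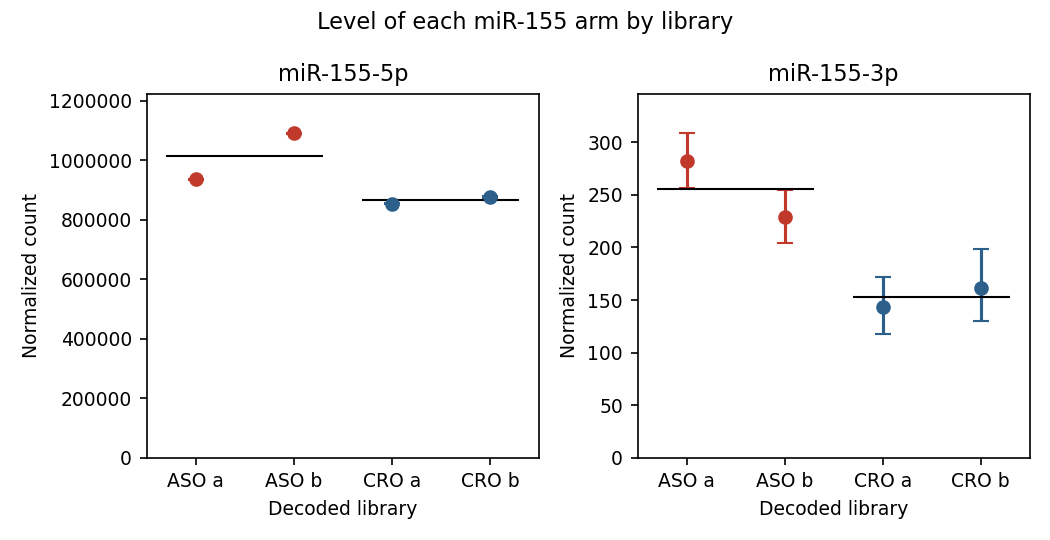
Normalized count of miR-155-5p (left) and miR-155-3p (right) in each recovered library, with ASO in red and CRO in blue. Bars are 95% exact Poisson intervals, which for miR-155-5p are smaller than the points, and black lines are group means. Both panels start at 0, and in both the ASO points lie above the CRO points.

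Neither arm, 0 of 2, was called by the authors' adjusted p of 0.05. Over all 1073 miRNAs 1.21% were called in either direction and 0.0932% as higher in ASO. At an unadjusted p under 0.05 the count was also 0 in the authors' deposited table, where 2.8% of the 1073 had one. A limma fit of the recovered libraries over the 482 miRNAs likewise called 0 of 2 at an adjusted p under 0.05, against 3.11% of all (0.207% higher in ASO). It gave 1 of 2 an unadjusted p under 0.05, as it did 12.2% of the 482. In that fit, on log2(normalized count + 1), miR-155-3p had a log2 ratio of 0.74 ± 0.26 (SE), an unadjusted p of 0.022 and an adjusted p of 0.29. Its 95% interval ran from 0.14 to 1.33. With library totals as the scaling the unadjusted limma p of miR-155-3p was 0.086, and it was 0.22 without ASO a and 0.066 without ASO b. The values for miR-155-5p were 0.23 ± 0.24 (SE), with an interval from -0.33 to 0.78 and an adjusted p of 0.80. The interval for miR-155-5p leaves room for a rise of up to 0.78 or a fall of up to 0.33 on the log2 scale.

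For both arms the groups did not overlap, with ASO on the higher side. The same held for 23.2% of the 482 miRNAs, and 41.9% did not overlap in either direction. Across the 482 the median log2 ratio was 0.04 and the median absolute one 0.29, so the log2 ratio of miR-155-5p was below that median absolute value and that of miR-155-3p above it. Leaving out ASO b brought the log2 ratio of miR-155-5p to 0.12, and leaving out ASO a brought it to 0.34, with limma in both cases. In bulk RNA a change in the share of cells that make miR-155 and a change in its level per cell cannot be told apart.

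**Figure D3:**
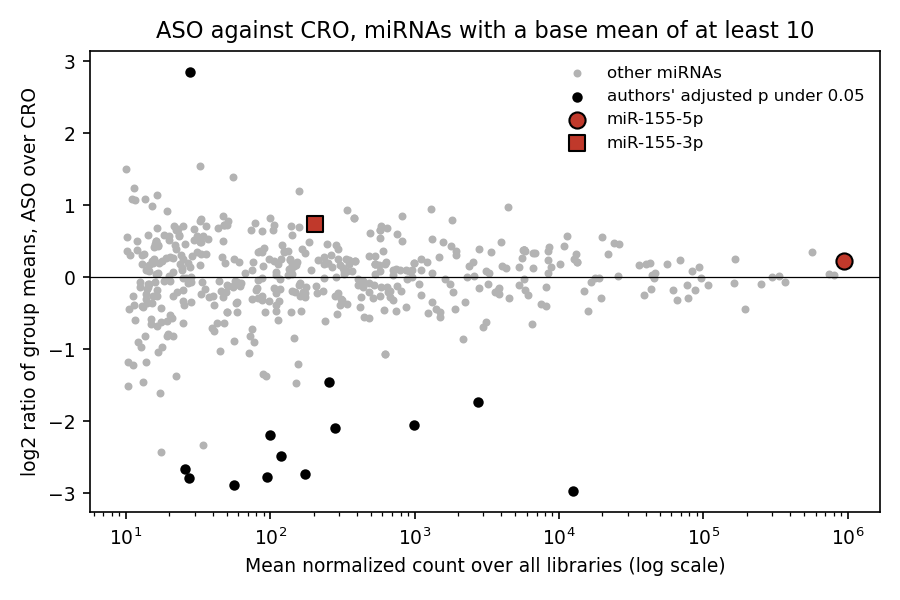
Log2 ratio of the authors' group means, ASO over CRO (y axis), against the mean normalized count over all libraries (x axis, log scale) for 482 miRNAs. Black points passed the authors' adjusted p. Both miR-155 arms (red) lie above 0 at 0.23 and 0.74, among the grey points that did not pass.

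The spread behind these tests could be read from the deposited p-values. DESeq expresses spread as a dispersion, the squared coefficient of variation between libraries beyond counting noise. All 1073 deposited p-values were returned to within 1e-08 when each miRNA took the larger of its own dispersion and a curve that falls with the mean level. For miR-155-5p its own dispersion was 0.0069 and that of the curve 0.046. For miR-155-3p the values were 0.014 and 0.057. The authors' p-values of both arms therefore rest on the curve, which was above the spread seen between the libraries. Among the 482 miRNAs, 74.9% had a dispersion under the curve. A dispersion of their own at or below that of miR-155-5p was found for 28.2%, and at or below that of miR-155-3p for 37.3%. Dispersions from 2 libraries per group are themselves uncertain.

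**Figure D4:**
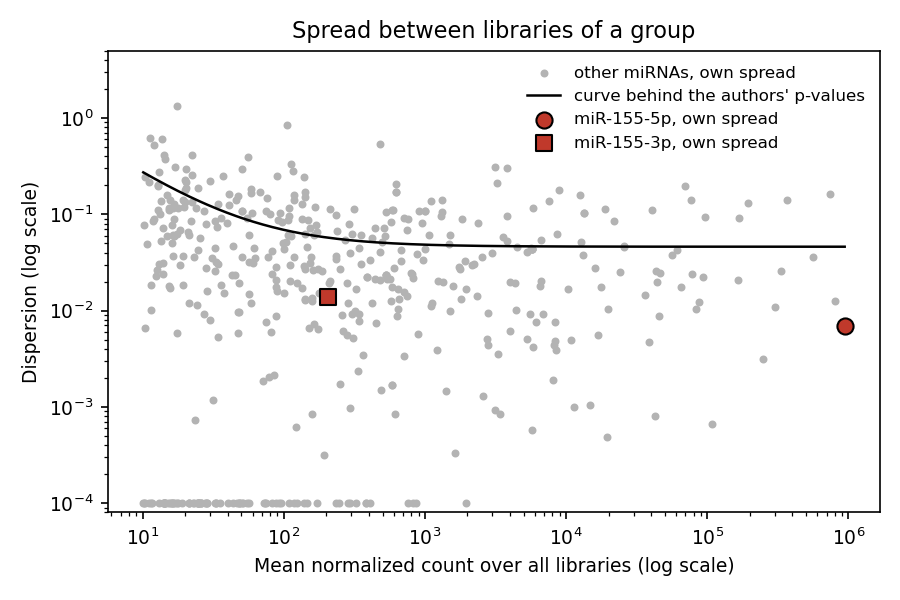
Dispersion (y axis, log scale) against mean normalized count over all libraries (x axis, log scale) for the 482 miRNAs. Grey points are each miRNA's own value, drawn at the floor of the plot where smaller or negative, and the black line is the curve behind the authors' p-values. miR-155-5p and miR-155-3p (red) lie under the line, at 0.0069 and 0.014.

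The balance of the arms was compared next. The 5p arm was read 3320 times as often as the 3p arm in ASO a, 4778 times in ASO b, 5963 times in CRO a and 5421 times in CRO b. The 3p arm made up 0.0301% of the reads of both arms in ASO a (95% Wilson interval 0.0275% to 0.0330%) and 0.0209% in ASO b (0.0188% to 0.0233%). It made up 0.0168% in CRO a (0.0139% to 0.0202%) and 0.0184% in CRO b (0.0150% to 0.0227%). ASO a stood apart from the other libraries, while the interval of ASO b overlapped both CRO intervals.

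From the group means, the log2 ratio of 5p over 3p was 11.96 in ASO and 12.47 in CRO, lower in ASO by a difference of -0.51. Over libraries it was 11.96 ± 0.37 (SD, n = 2) in ASO and 12.47 ± 0.10 (SD, n = 2) in CRO. An exact two-sided permutation test over the libraries gave p = 0.333, the smallest p that 2 against 2 allows. The groups did not overlap, as was the case for 30.4% of the 135 hairpins whose arms both had a base mean of at least 10. The gap between the ASO libraries, 0.53, was as wide as the difference between the groups. The difference was -0.25 without ASO a and -0.78 without ASO b.

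An arm ratio that changed by at least as much in either direction was found for 24.4% of the 135 hairpins, and miR-155 ranked 33 by that measure. The median absolute change over these hairpins was 0.24. Their median gap between libraries of a group was 0.34 in ASO and 0.56 in CRO. The less abundant arm was higher in ASO in 76 of the 135, and both arms were higher in 56. In 29 of those 56, miR-155 among them, the less abundant arm had the higher log2 ratio.

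In the size of its arm imbalance miR-155 ranked 3 of the 135 hairpins. Arms were paired by exact name, so miR-16-5p and let-7f-5p, for example, had no partner. Of 331 pairs, 135 were kept, and the floor on both arms leaves out hairpins with a very scarce arm. The rank therefore holds among the 135 only. The floor also caps the ratio a hairpin can reach by the level of its more abundant arm. The rank, and the distance from the median, thus partly reflect the high level of miR-155-5p. Its log2 ratio of 5p over 3p, over all libraries, was 12.17, against a median absolute value of 3.32. Among these, only miR-146a at 12.69 and miR-21a at 12.36 were above it. Like miR-155, both are induced by NF-kB or T cell receptor signals. The 3p arms of these hairpins had base means of 24.8 for miR-146a and 141.9 for miR-21a, beside 203.9 for miR-155. The mature guide arms are shown because of this likeness, with the seed in capitals (RefSeq, GRCm38.p6, minus strand of chromosome 11).
miR-21a-5p: uAGCUUAUcagacugauguuga
miR-146a-5p: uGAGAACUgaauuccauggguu
Both start with U, as miR-155-5p does, and neither shares its seed. Among the first 4 bases, 2 were A or U in miR-21a-5p and 2 in miR-21a-3p. For miR-146a it was 2 in the 5p arm and 1 in the 3p arm. The contrast of 4 against 1 between the miR-155 arms was thus absent or smaller in these hairpins.

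The 5 hairpins closest to miR-155 in arm ratio were miR-21a, miR-146a, let-7g, let-7b and miR-150, with log2 ratios of 12.36, 12.69, 11.43, 11.11 and 11.05. Their difference between ASO and CRO was -0.12 for miR-21a, -0.79 for miR-146a, 0.21 for let-7g, 0.63 for let-7b and 0.03 for miR-150. The arm ratio of miR-146a did not overlap between the groups, on the same side as that of miR-155, and that of let-7b did not overlap on the opposite side. The hairpins most like miR-155 in balance thus differed in both directions.

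**Figure D5:**
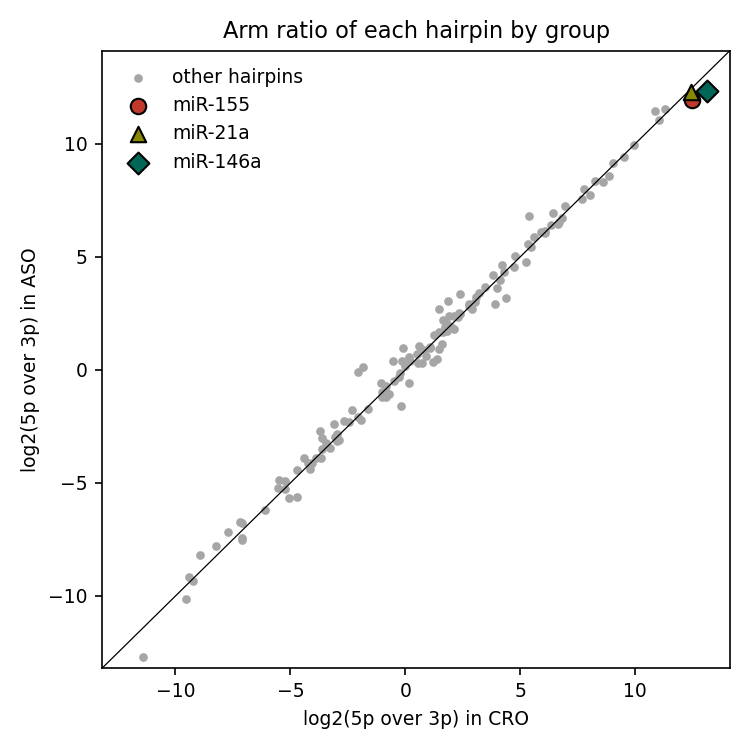
Log2 ratio of 5p over 3p in ASO (y axis) against CRO (x axis) for 135 hairpins with both arms at a base mean of at least 10; the line marks equal ratios. miR-155 (circle), miR-21a (triangle) and miR-146a (diamond) sit at the upper end, at or under the line.

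The arms did not have the same profile over the libraries. Likeness was measured as the Euclidean distance between log2(normalized count + 1) profiles over 4 libraries, each centred on its own mean, for miRNAs whose base mean reached 100. Of 272 others, miR-155-3p came 171st in likeness to miR-155-5p, at a distance of 0.64. In the other direction, miR-155-5p came 60th of 272 in likeness to miR-155-3p, at the same distance. miR-155-5p was highest in ASO b, whereas miR-155-3p was highest in ASO a. The 5 profiles closest to miR-155-5p were those of miR-128-3p (0.039), miR-212-5p (0.044), miR-92a-1-5p (0.064), miR-363-3p (0.097) and miR-148b-3p (0.11). The 5 closest to miR-155-3p were miR-301a-5p (0.21), miR-467a-5p and miR-467b-5p (0.26 each), miR-183-3p (0.29) and miR-669a-5p (0.30). miR-467a-5p and miR-467b-5p had identical values in every library, so their reads cannot be told apart. The same holds for miR-669a-5p and miR-669p-5p, which was at the same distance. These distances rest on 4 libraries and are a description.

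Among miRNAs known to be induced on T cell activation, both miR-155 arms included, 20 of 21 were listed and had a base mean of at least 10. Of these, 14 had a log2 ratio above 0, beside 53.1% of all 482, and the median was 0.33, beside 0.04 over all 482. The 20 are not separate observations, because the miR-155 arms, both above 0, are cut from the same hairpin. Also above 0 were miR-17-5p, miR-18a-5p, miR-19b-3p and miR-20a-5p, and likewise miR-96-5p, miR-182-5p and miR-183-5p. Whether the members of either set share a transcript was not tested, so the count above 0 may rest on fewer separate observations. 0 of the 20 passed the authors' adjusted p in either direction, against 1.21% of all 1073 miRNAs, which include those with a base mean under 10. An unadjusted p under 0.05 in the authors' deposited table was found for 2 of the 20, beside 6.22% of the 482. Those were miR-96-5p (log2 ratio 0.98) and miR-18a-5p (0.80). miR-21a-5p, which promotes survival, had 0.05. miR-146a-5p, a brake on NF-kB, had -0.08. Among 15 miRNAs listed as reduced on activation, 10 had a log2 ratio below 0 and 5 above 0. The 15 include miR-31-3p (0.08), although miR-31-5p (-0.13), the other arm of its hairpin, was listed as induced. The place of miR-31-3p in this list is therefore uncertain. Over all 482, 53.1% lay above 0. The median of the 15 was -0.17 and 0 passed, against 1.21% of all 1073 miRNAs. Those below 0 included miR-150-5p, which represses Myb, at -0.45, and miR-181a-5p, which tunes receptor sensitivity, at -0.65. Those above 0 included miR-29b-3p at 0.47 and miR-100-5p at 0.50.

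The markers of T cells and blood cells in general (miR-142a, miR-150-5p and miR-181a-5p) were all present, with a summed normalized count of 1053258 to 1148019 in ASO and 975762 to 1076329 in CRO. The sums of erythroid, myeloid and epithelial markers were lower in both ASO libraries than in both CRO libraries, with no test of the sums. Those of endothelial and stromal markers overlapped. Of the 482 single miRNAs, 41.9% did not overlap between the groups in either direction, and 53.1% had a log2 ratio above 0. The 5 erythroid markers all had log2 ratios below 0, and their sum was 1768 to 2112 in ASO and 3018 to 3575 in CRO. They are not 5 separate observations. miR-486a-5p and miR-486b-5p had nearly the same counts in every library, such as 744 and 742 in ASO a. The sum may therefore count most of their reads more than once. This pair had the lowest log2 ratios of the 5, at -1.06 each. miR-144-5p and miR-144-3p are arms of the same hairpin. The 2 myeloid markers, also arms of the same hairpin, were both below 0, with sums of 5599 to 5669 in ASO and 6189 to 7239 in CRO. The epithelial sum over 7 markers was 4919 to 5109 in ASO and 5968 to 6359 in CRO, and the endothelial and stromal sum over 4 was 1691 to 2343 and 1407 to 1944. None of these 18 other markers was at 0 over all libraries, and 0 passed the authors' adjusted p, against 1.21% of all 1073 miRNAs. Myeloid cells can also express miR-155, and the part of other cells in the values of either arm was not tested.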

How the data were processed

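Small RNA libraries (Trizol RNA, Illumina TruSeq small RNA kit, per the labels' protocols) came from 2 ASO and 2 CRO samples. Per the submitters' processing notes, DESeq and mm9 were used; an aligner, a trimming step and a miRNA annotation are not named there. For 1073 miRNAs the authors deposited, per the file headers, a mean normalized signal per group with a fold ratio and its log2 value, plus a raw and an adjusted p-value. The fold is CRO over ASO and was turned to ASO over CRO.

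The design assumed counts per library, but only group means were given. With 2 libraries, such a mean equals the average of 2 whole numbers after division by size factors. All 1073 miRNAs could be written so within rounding, by a tolerance set after the residuals were seen. Size factors recomputed as median ratios over 636 miRNAs matched to a relative 1e-12. For 3 miRNAs rounding allowed several splits, 4 of them for miR-155-5p in ASO. The negative binomial test that the authors ran with DESeq was rebuilt from the counts, with a dispersion curve read from 93 miRNAs. It gave the authors' p of 0.49956 for 1 split of miR-155-5p and 0.573, 0.774 and 0.810 for the others. On simulated group means of 1073 miRNAs, 100% of counts were recovered. Chi-square over degrees of freedom between the libraries of a group was 230.1 in ASO and 497.8 in CRO. This sets them against counting noise only, and does not show whether they are independent or technical repeats. They were counted as separate because the labels list them so.

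The authors' p is the main test, with a threshold of 0.05 on the adjusted p. The alternative was limma 3.58.1 (R 4.3.3, trend and robust) on log2(normalized count + 1) of 482 miRNAs, those with base means from 10 up. With 482 simulated miRNAs at a dispersion of 0.05, it recovered 100% of 100 changed 4-fold, 59% of 100 changed 2-fold, and made 3 false calls. Further alternatives were pseudocounts, filters, scalings and leaving out each library. Other steps used scipy 1.17.1, pandas 2.3.3 and mpmath 1.4.1 under Python 3.11.15. Named miRNAs were the arms, the 5 most abundant, the 5 nearest profiles of each arm, the 5 hairpins nearest in arm ratio, and members of the lists. The members and lists were chosen with earlier results of these data known.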

Additional observations from a re-analysis of the deposited data

How the results depend on the processing

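Every alternative run kept the direction of each result, and neither arm passed the adjusted p in any. That covers 12 alternatives for miR-155-5p (log2 ratio 0.12 to 0.34, limma adjusted p 0.65 to 0.997), 12 for miR-155-3p (0.58 to 0.89, limma adjusted p 0.081 to 0.997) and 6 for the arm ratio (-0.78 to -0.25), which have no test. With all libraries kept, the scalings moved miR-155-5p between 0.17 (library totals) and 0.32 (upper quartile) and miR-155-3p between 0.68 and 0.83; the median of the 482 miRNAs was 0.06 on size factors and 0.15 on the upper quartile. Because the groups do not overlap on size factors, leaving out a library could not turn a sign. Such fits assume that the lone library varies like those of the other group. No paired analysis was possible because the recovered libraries carry no replicate number. edgeR and DESeq2, planned for counts deposited per sample, were not run, and limma with other splits of miR-155-5p was not run because the authors' p left 1 split. The main limits are 2 libraries per group and 112 and 90 reads of miR-155-3p in CRO.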
